A study of Homo sapiens with 12 samples.

Results

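The genes described here are 10 components of the circadian clock, PER1, PER2, PER3, CRY1, CRY2, CLOCK, NR1D1, NR1D2, DBP and BHLHE40, out of 60675 genes counted in each of 12 RNA-seq libraries. They were picked by name, and earlier results of the same libraries were known at the time: PER1 had been seen to rise with the combined treatment in C4-2 cells and BHLHE40 to fall in the libraries labelled LNCaP. Values of the combined treatment in either line are therefore given as a description, with a standard error (SE) and no test, and so are PER1 and BHLHE40 wherever a comparison uses the control libraries on which each had been noticed. LNCaP cells come from a human prostate cancer that depends on androgen, and LNCaP:C4-2 (C4-2 below) is a castration-resistant line derived from them, and the study asked what inhibition of the histone demethylases KDM1A and KDM7A does to androgen-regulated transcription in them. Every group received the synthetic androgen R1881 at 1 nM in hormone-depleted serum for 72 h. C4-2 cells had R1881 alone, R1881 with the KDM1A inhibitor namoline (50 µM), R1881 with the KDM7A-selective inhibitor TCE-5002, or R1881 with both inhibitors (the combination). The study states that TCE-5002 also acts on KDM7B (PHF8) and KDM2A. Cells labelled LNCaP had R1881 alone or the combination. The series description lists TCE-5002 at 100 µM while the methods of the study give a lower dose, so its dose is uncertain. Each of the 6 groups held 2 libraries, called biological replicates by the study, and p-values measure the spread between these libraries.

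Library totals ran from 14791602 to 20690819 gene counts. The libraries labelled LNCaP went against their label: VIM, a mesenchymal filament protein, stood at 609 to 732 CPM in them and at 1.19 to 4.80 CPM in C4-2, and 9 of 10 luminal prostate markers were lower than in C4-2 at R1881, with a summed level of 884 to 950 CPM against 3762 to 3907 CPM. All 4 mesenchymal markers were higher, with CDH2 at 0 CPM in both C4-2 R1881 libraries. These groups are written as LNCaP-labelled, and differences between them and C4-2 cannot be told apart from differences of cell identity. One header was also at odds with its title, since the LNCaP-labelled combination replicate 1 names an alignment with namoline alone, so the levels of the 10 genes in that group are given for each library. All groups were taken at a single time after treatment began, so that a difference in level and a shift in the phase of a rhythm cannot be told apart.

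The mammalian clock is a feedback loop of transcription. CLOCK pairs with BMAL1 (or NPAS2 takes the place of CLOCK) and binds E-boxes in the promoters of the PER and CRY genes, whose proteins return to the nucleus and repress the pair. A second loop sets BMAL1 transcription through the repressors NR1D1 and NR1D2 (REV-ERB alpha and beta) and the activating ROR receptors, while DBP drives output genes through D-boxes, and BHLHE40 (DEC1) competes at E-boxes as a repressor.

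The promoter windows of the 10 genes were read for these elements to show what sequence they carry. RefSeq windows (GRCh38.p14) of 300 bases, from 250 before to 50 after each annotated start, were found for all 10 genes, 14 windows in total. The E-box CACGTG, searched on both strands, lay in 3 of the 14 windows, 1 each of PER1, NR1D2 and BHLHE40, and in 7.26% of all 35116 windows of the reference table. NR1D2 carried 2 copies, and 0.664% of all windows held 2 or more. The core D-box, TTATGTA or TTACGTA, lay in 4 of the 14, of PER2, PER3, CRY2 and NR1D2, against 2.67% of all windows. The hexamer AGGTCA bound by REV-ERB and ROR receptors lay in 3 of the 14, of PER1 and CRY2, against 13.8% of all. A match is a description of the letters, not of binding. Of the 16 other clock genes counted below, 14 had windows, and 4 of these genes, CIART among them, held an E-box. The windows with E-boxes of PER1, NR1D2 and BHLHE40 are printed 5′ to 3′ with the E-boxes in capitals. They are followed by CIART, a further clock repressor whose window held 3.
PER1, chr17:8152355-8152654, minus strand: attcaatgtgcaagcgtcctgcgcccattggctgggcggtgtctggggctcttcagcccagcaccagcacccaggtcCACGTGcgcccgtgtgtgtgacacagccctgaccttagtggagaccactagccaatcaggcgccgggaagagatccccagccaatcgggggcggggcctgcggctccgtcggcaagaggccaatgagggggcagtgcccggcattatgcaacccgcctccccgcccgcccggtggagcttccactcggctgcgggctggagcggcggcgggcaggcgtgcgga
NR1D2, chr3:23945871-23946170, plus strand: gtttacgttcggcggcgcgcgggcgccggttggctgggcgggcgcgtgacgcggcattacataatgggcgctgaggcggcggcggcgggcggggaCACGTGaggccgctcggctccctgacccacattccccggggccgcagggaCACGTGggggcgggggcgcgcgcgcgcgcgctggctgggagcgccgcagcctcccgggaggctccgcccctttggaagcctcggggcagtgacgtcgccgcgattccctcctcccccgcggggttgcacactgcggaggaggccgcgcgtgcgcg
BHLHE40, chr3:4979187-4979486, plus strand: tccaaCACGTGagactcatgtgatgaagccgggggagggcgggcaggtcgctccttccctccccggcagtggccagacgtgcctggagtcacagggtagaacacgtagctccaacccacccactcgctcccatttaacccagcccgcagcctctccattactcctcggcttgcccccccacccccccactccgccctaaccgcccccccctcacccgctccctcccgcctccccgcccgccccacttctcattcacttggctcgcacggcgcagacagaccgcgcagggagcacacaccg
CIART, chr1:150282304-150282603, plus strand: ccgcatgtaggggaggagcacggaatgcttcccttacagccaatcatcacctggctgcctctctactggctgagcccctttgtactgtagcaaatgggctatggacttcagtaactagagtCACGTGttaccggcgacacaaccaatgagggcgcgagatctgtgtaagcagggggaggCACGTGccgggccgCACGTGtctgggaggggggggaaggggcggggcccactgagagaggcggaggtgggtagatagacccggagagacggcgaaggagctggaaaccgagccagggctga

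The first base of the E-box lay 173 bases before the annotated start in PER1, 155 and 105 bases before it in NR1D2, 245 bases before it in BHLHE40, and 129, 71 and 57 bases before it in CIART. No E-box of these letters was in the windows of PER2, PER3, CRY1, CRY2, CLOCK, NR1D1 or DBP.

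In C4-2 cells, NR1D2 and PER2 fell with namoline and with TCE-5002, and the period genes did not move as one. Both single-inhibitor contrasts use the same R1881 libraries, so their calls are not independent. Of all genes, 35.0% passed with namoline and 36.5% with TCE-5002 (adjusted p of edgeR under 0.05). In bulk RNA, fewer cells with a transcript and less of it per cell cannot be told apart. NR1D2 fell about 2-fold with either inhibitor, PER2 fell by less than 2-fold, and these 4 calls held whichever library was left out. PER3 and BHLHE40 passed higher with each inhibitor, by less than 2-fold, in calls that did not hold in every fit without 1 library, and PER1 stood slightly above R1881. The C4-2 combination libraries had another pattern: PER1, NR1D1, PER3, CRY2 and BHLHE40 stood more than 2-fold above R1881, where 10.0% of all genes were at least 2-fold higher. NR1D2 stood above R1881 rather than below, and PER2 remained low. In the LNCaP-labelled combination libraries BHLHE40 and DBP stood more than 2-fold below R1881, where 12.3% of all genes were at least 2-fold lower. DBP fell short of 2-fold under a correction for GC content. CRY1, CLOCK and CRY2 had positive log2 fold changes there and the others negative ones, PER3 at only -0.12 (SE 0.24).

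**Figure D1:**
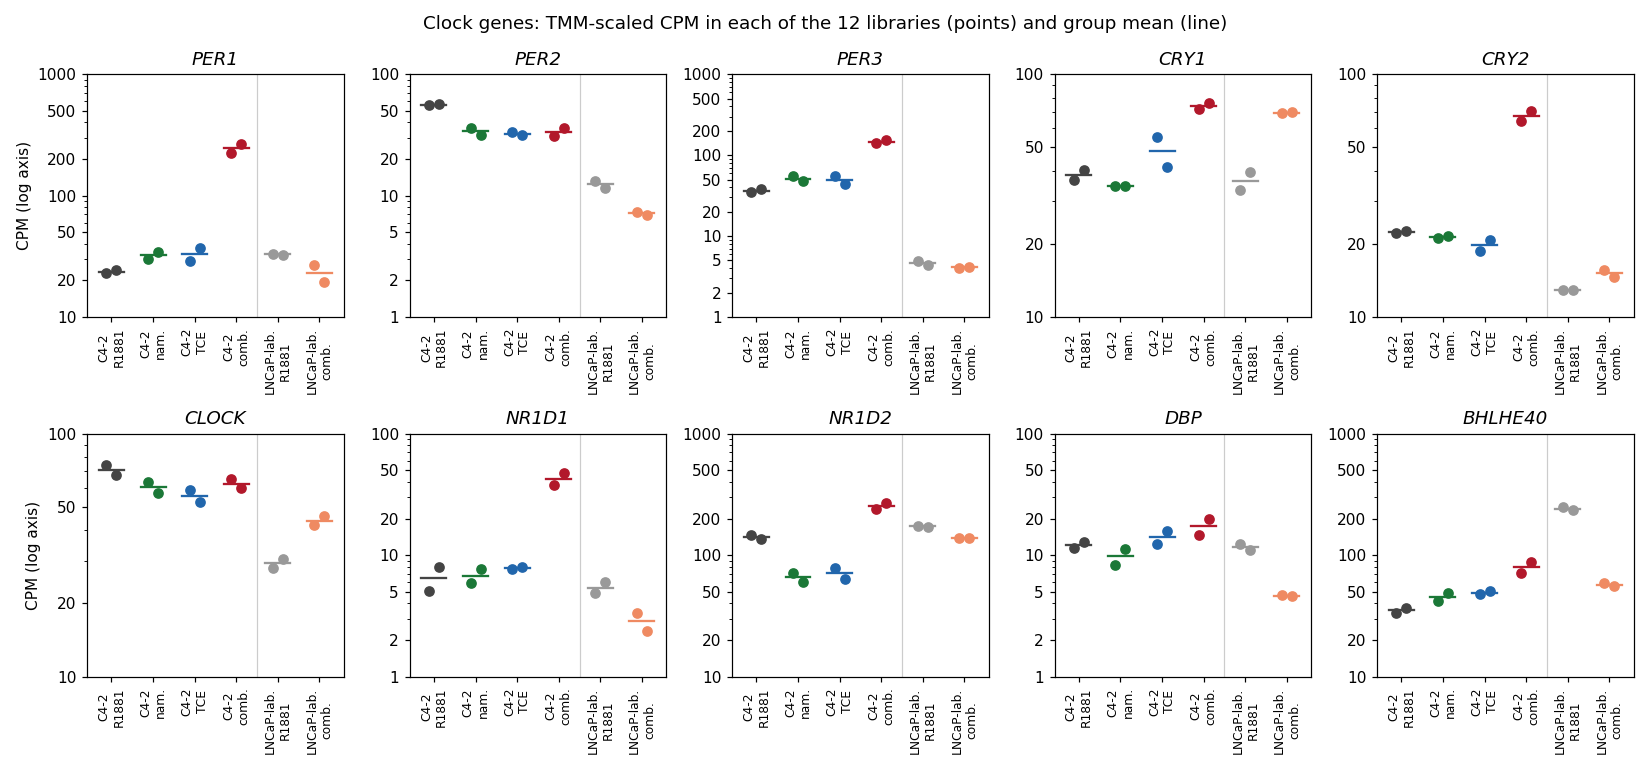
Level of each of the 10 clock genes in each of the 12 libraries, as CPM on a log axis, by group (nam., namoline; TCE, TCE-5002; comb., combination; LNCaP-lab., LNCaP-labelled); points are the 2 libraries and the line is their mean. The C4-2 combination libraries of PER1, at 225 and 265 CPM, stand apart from the other 10 libraries, at 19.5 to 37.1 CPM.

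Levels are CPM, counts scaled to a common effective library size, and between genes they were compared only per kilobase of exon. At R1881 in C4-2, the levels per kilobase ran from 1.86 CPM for DBP and 2.35 CPM for NR1D1 to 24.4 CPM for NR1D2, with BHLHE40, PER2, CRY1 and CLOCK at 6.05 to 9.12 CPM and PER1, CRY2 and PER3 at 3.38 to 4.51 CPM. All 10 genes passed the filter on low counts in each fit. In the C4-2 combination, PER1 reached 35.0 CPM per kilobase, next to NR1D2 at 43.6 CPM.

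The period genes encode the limiting repressors of the loop. PER1 (ENSG00000179094, chromosome 17, 8140472 to 8156506, minus strand, GRCh38) stood at 22.8 and 24.6 CPM in the C4-2 R1881 libraries, 30.1 and 34.5 CPM with namoline, 29.2 and 37.1 CPM with TCE-5002, and 225 and 265 CPM with the combination. All 6 treated libraries were above both R1881 libraries, and both combination libraries were above the 4 with a single inhibitor. The log2 fold change of PER1 was 0.43 with namoline (SE 0.14) and 0.49 with TCE-5002 (SE 0.14), and it came to 0.21 with each under a correction for GC content. These changes carry no test, since they share the R1881 libraries with the contrast on which PER1 had been noticed. Against R1881 the combination had a log2 fold change of 3.35 (SE 0.15), or 10.3 times the mean level. In the LNCaP-labelled libraries PER1 was at 32.9 and 32.6 CPM with R1881 and at 26.7 and 19.5 CPM with the combination, a log2 fold change of -0.45 (SE 0.14) that came to -0.03 with the GC correction.

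PER2 (ENSG00000132326, chromosome 2, 238244038 to 238290102, minus strand) was at 55.8 and 56.6 CPM with R1881 in C4-2. It was at 35.8 and 31.7 CPM with namoline, 33.5 and 31.3 CPM with TCE-5002 and 30.9 and 36.2 CPM with the combination. The 3 treated groups overlapped one another and lay below both R1881 libraries. PER2 fell by 0.75 with namoline (SE 0.13, adjusted p = 0.000415, edgeR) and by 0.80 with TCE-5002 (SE 0.13, adjusted p = 0.000271, edgeR), and both calls held in every fit that left out 1 library. For the combination the log2 fold change was -0.77 (SE 0.13), and the combination differed by -0.02 (SE 0.13) from namoline and by 0.02 (SE 0.13) from TCE-5002. LNCaP-labelled libraries held 13.3 and 11.6 CPM with R1881 and 7.33 and 6.95 CPM with the combination, a log2 fold change of -0.74 (SE 0.18). PER2 was thus the one gene of the 10 whose libraries lay below R1881 without overlap in all 4 treated groups, where 5.11% of the 17413 genes with a mean of at least 10 counts did so. This count was chosen after its values were seen. Of its exon bases, 188 are shared with the antisense transcript ENSG00000225057, which was at 4.68 and 5.13 CPM with R1881 and at 0.227 to 2.25 CPM in the treated C4-2 libraries. Counting did not use strand, and how fragments that touched exons of both were counted was not checked.

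PER3 (ENSG00000049246, chromosome 1, 7784320 to 7845177, plus strand) stood at 34.8 and 38.2 CPM with R1881, 54.7 and 47.5 CPM with namoline, 55.0 and 44.2 CPM with TCE-5002 and 140 and 152 CPM with the combination in C4-2. Each treated group was above R1881 without overlap, and the combination was above every other library. PER3 rose by 0.47 with namoline (SE 0.13, adjusted p = 0.0126, edgeR) and by 0.44 with TCE-5002 (SE 0.13, adjusted p = 0.0166, edgeR). The namoline call was lost without R1881 replicate 1 or namoline replicate 1 (adjusted p of edgeR up to 0.166), and the TCE-5002 call was lost without either R1881 replicate or without TCE-5002 replicate 1 (up to 0.157). The combination had a log2 fold change of 1.97 (SE 0.13). LNCaP-labelled PER3 was low throughout, at 4.93 and 4.37 CPM with R1881 and 4.06 and 4.16 CPM with the combination (-0.12, SE 0.24). Its exons overlap those of UTS2 on the other strand over 868 bases, and UTS2 averaged 0.083 counts per library. They also share 482 bases with the antisense transcript ENSG00000236266, which averaged 10.25 counts and went from 0.515 and 0.260 CPM with R1881 to 2.67 and 2.13 CPM with the combination in C4-2.

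The cryptochromes CRY1 and CRY2 repress CLOCK and BMAL1 together with the period proteins. CRY1 (ENSG00000008405, chromosome 12, 106991364 to 107093829, minus strand) was at 36.6 and 40.3 CPM with R1881, 34.5 and 34.6 CPM with namoline, 55.1 and 41.6 CPM with TCE-5002 and 71.8 and 76.0 CPM with the combination in C4-2. Neither inhibitor alone passed against R1881, with -0.17 (SE 0.14, adjusted p = 0.379, edgeR) for namoline and 0.33 (SE 0.14, adjusted p = 0.0695, edgeR) for TCE-5002. The combination had 0.92 (SE 0.14). In the LNCaP-labelled libraries CRY1 went from 33.3 and 39.4 CPM to 69.1 and 70.0 CPM, a log2 fold change of 0.99 (SE 0.12), close to that in C4-2, and the difference between the lines was -0.12 (SE 0.14).

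CRY2 (ENSG00000121671, chromosome 11, 45847118 to 45883248, plus strand) was at 22.1 and 22.7 CPM with R1881, 21.2 and 21.6 CPM with namoline and 18.7 and 20.8 CPM with TCE-5002. Neither inhibitor passed, with log2 fold changes of -0.08 (SE 0.13, adjusted p = 0.669, edgeR) and -0.18 (SE 0.13, adjusted p = 0.297, edgeR). Both combination libraries, at 64.3 and 70.3 CPM, lay above the other 10 libraries, with a log2 fold change of 1.56 (SE 0.13). LNCaP-labelled libraries were at 12.9 CPM in both R1881 replicates and at 15.7 and 14.7 CPM with the combination (0.29, SE 0.15).

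CLOCK is the activating partner of BMAL1. CLOCK (ENSG00000134852, chromosome 4, 55427903 to 55547138, minus strand) stood at 74.4 and 67.9 CPM with R1881, 63.1 and 56.9 CPM with namoline, 58.7 and 52.4 CPM with TCE-5002 and 64.9 and 59.6 CPM with the combination in C4-2. Its treated libraries were all below both R1881 libraries, and those with namoline overlapped the other 2 treatments. It fell by 0.36 with TCE-5002 (SE 0.12, adjusted p = 0.0307, edgeR), a call lost without either R1881 replicate or without TCE-5002 replicate 2 (adjusted p of edgeR up to 0.275), and was at -0.26 with namoline (SE 0.12, adjusted p = 0.108, edgeR) and -0.22 (SE 0.12) with the combination. LNCaP-labelled CLOCK stood at 28.0 and 30.5 CPM with R1881 and at 41.9 and 45.8 CPM with the combination (0.64, SE 0.12), or 0.33 with the GC correction.

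NR1D1 and NR1D2 encode the REV-ERB receptors, heme-binding repressors of BMAL1, and the 2 paralogues differed. NR1D2 (ENSG00000174738, chromosome 3, 23945260 to 23980618, plus strand), the gene with 2 E-boxes above, was at 148 and 136 CPM with R1881 in C4-2, 71.0 and 60.2 CPM with namoline and 78.6 and 63.7 CPM with TCE-5002. Both single treatments lay below R1881 without overlap and overlapped each other. NR1D2 fell by 1.13 with namoline (SE 0.13, adjusted p = 1.67e-05, edgeR) and by 1.00 with TCE-5002 (SE 0.13, adjusted p = 5.61e-05, edgeR), and both calls held in every fit that left out 1 library. With the combination it was at 240 and 267 CPM, above both R1881 libraries (0.81, SE 0.13), 1.94 (SE 0.13) above namoline and 1.81 (SE 0.13) above TCE-5002. The combination thus lay on the other side of R1881 from each inhibitor alone. In the LNCaP-labelled libraries NR1D2 was at 174 and 171 CPM with R1881 and 140 and 138 CPM with the combination (-0.25, SE 0.10).

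NR1D1 (ENSG00000126368, chromosome 17, 40092787 to 40100725, minus strand) was low in C4-2 with R1881, at 5.06 and 7.99 CPM, with namoline, at 5.92 and 7.61 CPM, and with TCE-5002, at 7.72 and 7.98 CPM. The libraries of each inhibitor overlapped those with R1881, and neither passed, with 0.06 (SE 0.22, adjusted p = 0.864, edgeR) for namoline and 0.29 (SE 0.22, adjusted p = 0.322, edgeR) for TCE-5002. The direction for namoline turned with the GC correction and with single libraries left out. Both combination libraries stood above them, at 37.8 and 47.4 CPM, a log2 fold change of 2.70 (SE 0.21). LNCaP-labelled libraries went from 4.84 and 5.96 CPM to 3.33 and 2.38 CPM (-0.87, SE 0.26). The exons of NR1D1 overlap those of the thyroid receptor gene THRA on the other strand over 263 bases (9.49% of its exon bases). How fragments that touched both genes were counted was not checked. THRA was lower where NR1D1 was higher in the C4-2 combination, at 24.2 and 25.0 CPM against 43.9 and 43.5 CPM, and in the LNCaP-labelled libraries it went from 46.4 and 41.6 CPM to 24.6 and 18.01 CPM.

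DBP, an output factor of the clock that binds D-boxes, and BHLHE40 had combination values on opposite sides of R1881 in the 2 lines. DBP (ENSG00000105516, chromosome 19, 48630030 to 48637438, minus strand) stood at 11.4 and 12.9 CPM with R1881, 8.34 and 11.2 CPM with namoline, 12.4 and 15.9 CPM with TCE-5002 and 14.5 and 19.96 CPM with the combination in C4-2. Neither inhibitor passed, with -0.33 (SE 0.20, adjusted p = 0.232, edgeR) for namoline and 0.22 (SE 0.20, adjusted p = 0.413, edgeR) for TCE-5002, and the direction for TCE-5002 turned with the GC correction. The C4-2 combination had 0.48 (SE 0.20), 0.25 without combination replicate 2. LNCaP-labelled DBP went from 12.2 and 11.1 CPM to 4.66 and 4.62 CPM, a log2 fold change of -1.27 (SE 0.19), or -0.87 with the GC correction. The exons of SPHK2, on the other strand, cover 661 bases of DBP (10.1%), and the counting of fragments that touched both was not checked. SPHK2 was also lower in the LNCaP-labelled combination, from 31.4 and 31.2 CPM to 8.36 and 7.66 CPM.

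BHLHE40 (ENSG00000134107, chromosome 3, 4979116 to 4985323, plus strand) was at 33.1 and 36.9 CPM with R1881 in C4-2, 41.8 and 48.6 CPM with namoline, 48.0 and 50.2 CPM with TCE-5002 and 71.3 and 87.4 CPM with the combination. The 4 groups followed in that order, with the namoline and TCE-5002 libraries overlapping. BHLHE40 rose by 0.49 with TCE-5002 (SE 0.13, adjusted p = 0.00985, edgeR), a call lost without R1881 replicate 1 (adjusted p = 0.124, edgeR). With namoline it rose by 0.36 (SE 0.13, adjusted p = 0.0498, edgeR), a call at the edge of the threshold that was lost in each fit without 1 library (up to 0.377), with another scaling, without the filter and in DESeq2. The combination had 1.16 (SE 0.13). In the LNCaP-labelled libraries BHLHE40 was at 249 and 233 CPM with R1881, the highest values of the 12 libraries, and at 58.6 and 55.3 CPM with the combination, a log2 fold change of -2.03 (SE 0.11).

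**Figure D2:**
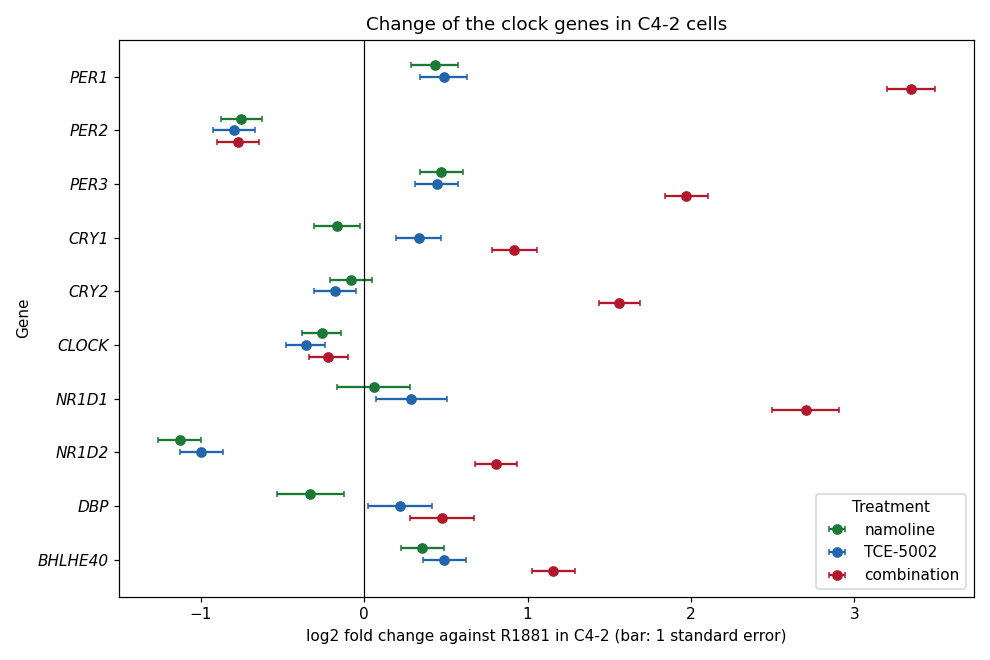
Log2 fold change against R1881 in C4-2 (x axis) of each clock gene (y axis) with namoline, TCE-5002 and the combination; points are the edgeR estimates and bars 1 standard error. The single inhibitors sit side by side for most genes, while the combination runs from -0.77 for PER2 to 3.35 for PER1. All contrasts share the same R1881 libraries.

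Counted without PER1, 4 of the other 9 clock genes passed with namoline (adjusted p of edgeR under 0.05), 2 higher and 2 lower, against 35.0% of the 17702 genes tested (18.7% higher and 16.3% lower). NR1D2 alone also reached 2-fold, against a background of 12.1% (6.88% lower). The median log2 fold change of all 10 was -0.12, and that of all genes was -0.0043. Leaving out 1 library left 2 genes that passed (without R1881 replicate 1 or namoline replicate 1) or 3 (without R1881 replicate 2 or namoline replicate 2), while the share of all genes went down to between 17.6% and 23.0%. With TCE-5002, 5 of the 9 passed, 2 higher and 3 lower, against 36.5% of all genes (19.9% higher and 16.7% lower), and 0 reached 2-fold against 11.8%. The number that passed was 2 without R1881 replicate 1 and 3 without R1881 replicate 2, where 18.2% and 22.4% of all genes passed, and 4 and 5 without TCE-5002 replicate 1 or 2, where 41.8% and 39.0% did. NR1D2 with TCE-5002 lay so near 2-fold that RLE scaling, DESeq2 and 2 of the fits without 1 library counted it. With the GC correction, DBP passed lower with namoline (adjusted p of edgeR 0.00784), and with TCE-5002 CRY1 passed higher (0.000368) and CRY2 lower (0.0102). The shares of the 9 that passed stood near the background or somewhat above it, and those that reached 2-fold near it or below it.

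TCE-5002 and namoline were then compared directly, a contrast that uses none of the libraries on which PER1 or BHLHE40 were noticed. CRY1 was higher with TCE-5002 by 0.50 (SE 0.14, adjusted p = 0.0215, edgeR), and it was the 1 gene of 10 that passed, against 18.2% of all genes (9.25% higher). This call was lost without either namoline replicate (adjusted p of edgeR up to 0.136) and in a fit on these 4 libraries alone. DBP was higher by 0.55 without passing (SE 0.20, adjusted p = 0.0738, edgeR), and it passed without TCE-5002 replicate 1, with the replicate block and with the GC correction. The log2 differences of the remaining 8 genes ran from -0.10 for CRY2 to 0.23 for NR1D1, with SE of 0.12 to 0.22. NR1D2, for example, differed by 0.13 (SE 0.13, adjusted p = 0.534, edgeR). The replicates of TCE-5002 stood farthest apart of the 6 groups, with 28.0 of the chi-square statistic per gene against 3.61 to 9.77 in the others, where counting noise alone gives about 1.

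For the C4-2 combination, the choice of PER1 had used this contrast, so genes are counted by the size of their change alone and only placed beside the background. Of the 10 genes, 5 were at least 2-fold higher and 0 at least 2-fold lower, with 10.0% and 15.1% of all genes at those sizes. The median log2 fold change was 1.04, against -0.03 over all genes. Relative to a sum of the 2 single effects on the log2 scale, the combination stood higher by 2.94 (SE 0.19) for NR1D2, 2.43 (SE 0.20) for PER1, 2.35 (SE 0.30) for NR1D1, 1.82 (SE 0.18) for CRY2 and 1.05 (SE 0.18) for PER3. This excess was 0.31 (SE 0.19) for BHLHE40, whose combination level was near the sum of the single effects. For PER2 it was 0.77 (SE 0.18), the size of 1 of the 2 single falls. At least 2-fold away from that sum, in either direction, were 5 of the 10 genes and 42.6% of all genes.

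**Figure D3:**
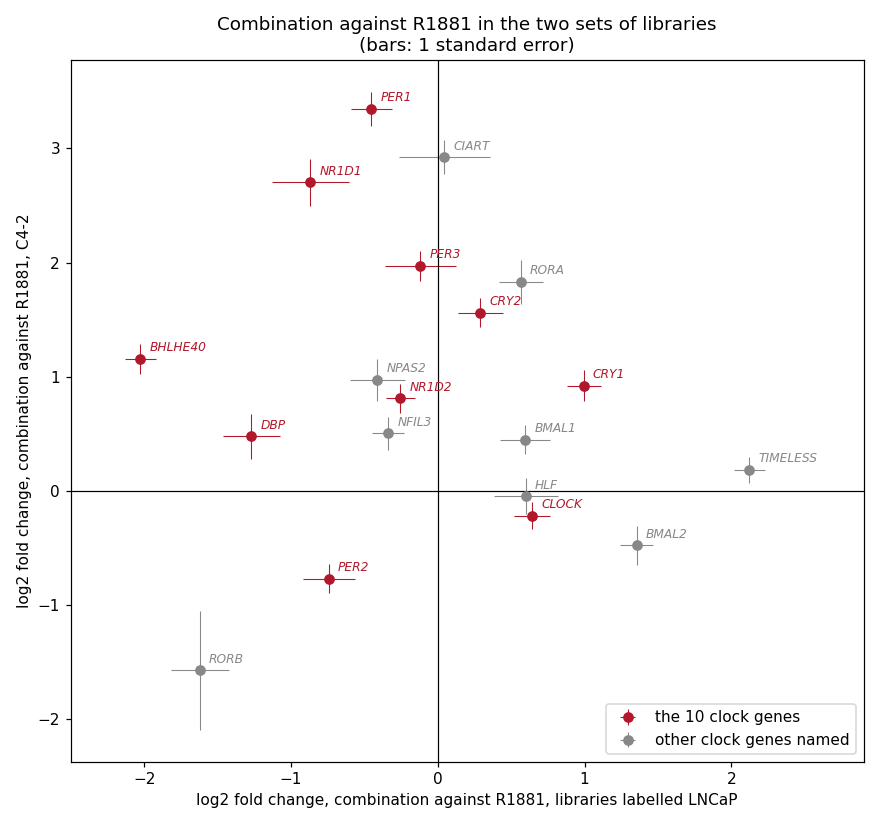
Log2 fold change of the combination against R1881 in the LNCaP-labelled libraries (x axis) and in C4-2 (y axis) for the 10 clock genes and 9 other clock genes; bars are 1 standard error. PER1, NR1D1 and BHLHE40 lie at the upper left, higher in C4-2 and lower in the LNCaP-labelled libraries, while CRY1 lies at 0.99 and 0.92.

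In the LNCaP-labelled combination, counted in the same way, 0 of the 10 were at least 2-fold higher and 2, BHLHE40 and DBP, at least 2-fold lower, with 8.15% and 12.3% of all genes at those sizes. The median was -0.35, against -0.0049 over all genes. Without combination replicate 1, whose header was at odds with its title, 3 genes were at least 2-fold away from R1881, and without replicate 2 there were 2. CRY1 and PER2 had nearly the same change in both lines, since the C4-2 minus LNCaP-labelled difference was -0.12 (SE 0.14) for CRY1 and -0.08 (SE 0.18) for PER2. For 7 of the 10 genes the combination libraries lay on one side of both R1881 libraries in C4-2 and on the other side in the LNCaP-labelled libraries, as did 28.2% of the 17413 genes with a mean of at least 10 counts. The difference between the lines was 3.75 (SE 0.17) for PER1, 3.53 (SE 0.29) for NR1D1 and 3.13 (SE 0.14) for BHLHE40.

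At R1881 alone the 2 lines already differed, in a comparison where 76.8% of the 19763 genes tested passed and 50.5% also reached 2-fold. Counted without PER1 and BHLHE40, 1 of the other 8 clock genes was higher and 4 were lower in the LNCaP-labelled libraries (39.0% and 37.8% of all genes), and 3 of these 5 reached 2-fold. PER3 was lower by a log2 difference of -3.00 (SE 0.12, adjusted p = 1.95e-16, edgeR), PER2 by -2.21 (SE 0.12, adjusted p = 3.1e-14, edgeR), CLOCK by -1.31 (SE 0.10, adjusted p = 2.94e-11, edgeR) and CRY2 by -0.82 (SE 0.12, adjusted p = 8.79e-07, edgeR). NR1D2 was higher by 0.25 (SE 0.08, adjusted p = 0.00985, edgeR), a call lost without C4-2 R1881 replicate 2 (adjusted p = 0.150, edgeR). CRY1 (-0.10, SE 0.10), DBP (-0.08, SE 0.16) and NR1D1 (-0.27, SE 0.21) did not pass, and NR1D1 passed without C4-2 R1881 replicate 1 (-0.58, adjusted p = 0.0244, edgeR). BHLHE40 at 2.76 (SE 0.10) and PER1 at 0.44 (SE 0.12) are descriptions, because their choice used these control libraries. BHLHE40 was 6.90 times its C4-2 mean level, and after the combination the 2 lines stood at 57.0 and 79.4 CPM.

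Other genes of the loop were counted as a list of 16, BMAL1, BMAL2, NPAS2, RORA, RORB, BHLHE41, NFIL3, TEF, HLF, CIART, CSNK1D, CSNK1E, BTRC, FBXW11, TIMELESS and TIPIN. With namoline 3 passed higher and 6 lower, with 18.7% and 16.3% of all genes called in those directions, and 4 of the 6 reached 2-fold, against 6.88%. With TCE-5002 3 passed higher and 3 lower, with 19.9% and 16.7% of all genes called. Of the list, 1 in each direction also reached 2-fold, against 11.8% of all genes in either direction. Between the inhibitors 5 passed higher with TCE-5002 and 2 lower, with 9.25% and 8.91% of all genes called in those directions. The medians of the list were -0.05 with namoline and 0.01 with TCE-5002. In the C4-2 combination 2 were at least 2-fold higher and 1 at least 2-fold lower, with a median of 0.43, and in the LNCaP-labelled combination there were also 2 and 1, with a median of -0.0043, beside the same shares of all genes as for the 10.

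BMAL1, the partner of CLOCK and a target of the REV-ERB and ROR receptors, stood at 38.5 and 36.7 CPM with R1881 in C4-2, 14.0 and 14.1 CPM with namoline, 21.3 and 22.1 CPM with TCE-5002 and 47.8 and 56.7 CPM with the combination. The 4 groups did not overlap. BMAL1 fell by 1.44 with namoline (SE 0.14, adjusted p = 2.36e-06, edgeR) and by 0.79 with TCE-5002 (SE 0.13, adjusted p = 0.000338, edgeR), and the 2 inhibitors differed by 0.64 (SE 0.14, adjusted p = 0.00537, edgeR), a difference that was lost without namoline replicate 2 (adjusted p = 0.0532, edgeR). The combination had 0.45 (SE 0.13), so that BMAL1, as NR1D2 above, stood below R1881 with each inhibitor and above it with both. LNCaP-labelled BMAL1 was at 8.51 and 10.6 CPM with R1881 and 14.9 and 12.8 CPM with the combination (0.60, SE 0.17).

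NPAS2, the paralogue of CLOCK, was at 6.79 and 6.88 CPM with R1881 in C4-2, 6.33 and 6.41 CPM with namoline, 8.65 and 12.1 CPM with TCE-5002 and 14.0 and 13.3 CPM with the combination. It rose by 0.60 with TCE-5002 (SE 0.19, adjusted p = 0.0226, edgeR), a call lost in 3 of 4 fits without 1 library (without either R1881 replicate or without TCE-5002 replicate 2), and was at -0.12 with namoline (SE 0.20, adjusted p = 0.688, edgeR). The combination had 0.97 (SE 0.19) in C4-2. LNCaP-labelled NPAS2 was at 12.05 and 9.51 CPM with R1881 and at 8.54 and 7.05 CPM with the combination (-0.41, SE 0.19).

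Among the ROR receptors, which activate BMAL1, RORA stood at 5.01 and 5.20 CPM with R1881 in C4-2 and fell by 1.20 with namoline (SE 0.23, adjusted p = 0.00109, edgeR) and by 1.04 with TCE-5002 (SE 0.22, adjusted p = 0.00237, edgeR). With the combination RORA was at 16.6 and 20.3 CPM (1.83, SE 0.19), again above R1881. RORB was barely counted in C4-2, with 24 and 15 counts at R1881 and 2 counts in each namoline library (adjusted p = 0.00187, edgeR). Scaled by library totals without TMM factors, the ratio was 0.0997, with an exact 95% interval of 0.0259 to 0.276 that covers counting error only. The TMM-scaled means gave a ratio of 0.114. In the LNCaP-labelled libraries RORB went from 12.7 and 17.6 CPM to 4.06 and 5.33 CPM with the combination (-1.62, SE 0.20).

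NFIL3, which opposes DBP at D-boxes, fell by 1.03 with namoline (SE 0.15, adjusted p = 0.00014, edgeR) and by 0.77 with TCE-5002 (SE 0.15, adjusted p = 0.00124, edgeR) and stood at 0.50 (SE 0.15) with the combination. HLF, a relative of DBP, rose by 0.96 with namoline (SE 0.15, adjusted p = 0.000224, edgeR) and by 1.51 with TCE-5002 (SE 0.15, adjusted p = 4.89e-06, edgeR), while its combination libraries, at 10.3 and 10.4 CPM, lay between the R1881 libraries at 11.0 and 9.87 CPM. HLF, NFIL3, BMAL1, RORA and NR1D2 thus had combination levels that a sum of the single effects does not give, by -2.52, 2.30, 2.67, 4.07 and 2.94 on the log2 scale. Of all genes, 42.6% were at least 2-fold away from such a sum.

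CIART had the largest combination value of the 16 in C4-2. It was at 12.1 and 11.2 CPM with R1881, 8.87 and 7.13 CPM with namoline, 10.4 and 9.70 CPM with TCE-5002 and 83.6 and 96.2 CPM with the combination (2.92, SE 0.15). It fell by 0.56 with namoline (SE 0.16, adjusted p = 0.0144, edgeR), a call lost without R1881 replicate 1 or namoline replicate 2 (adjusted p of edgeR up to 0.165). LNCaP-labelled CIART was at 3.35 and 2.09 CPM with R1881 and at 2.42 and 2.94 CPM with the combination. TIMELESS, which also serves DNA replication, went from 71.4 and 72.5 CPM to 302 and 300 CPM in the LNCaP-labelled combination (2.12, SE 0.11). In C4-2 it was at 0.18 (SE 0.12) with the combination, and it rose by 0.77 with namoline (SE 0.12, adjusted p = 0.000151, edgeR). With TCE-5002 TIMELESS was at 0.28 (SE 0.12, adjusted p = 0.0753, edgeR), a difference of -0.50 from namoline (SE 0.11, adjusted p = 0.00876, edgeR). BMAL2, the paralogue of BMAL1, went from 32.8 and 37.6 CPM to 85.4 and 87.5 CPM in the LNCaP-labelled combination (1.35, SE 0.11) and was at -0.48 (SE 0.17) in the C4-2 combination.

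**Figure D4:**
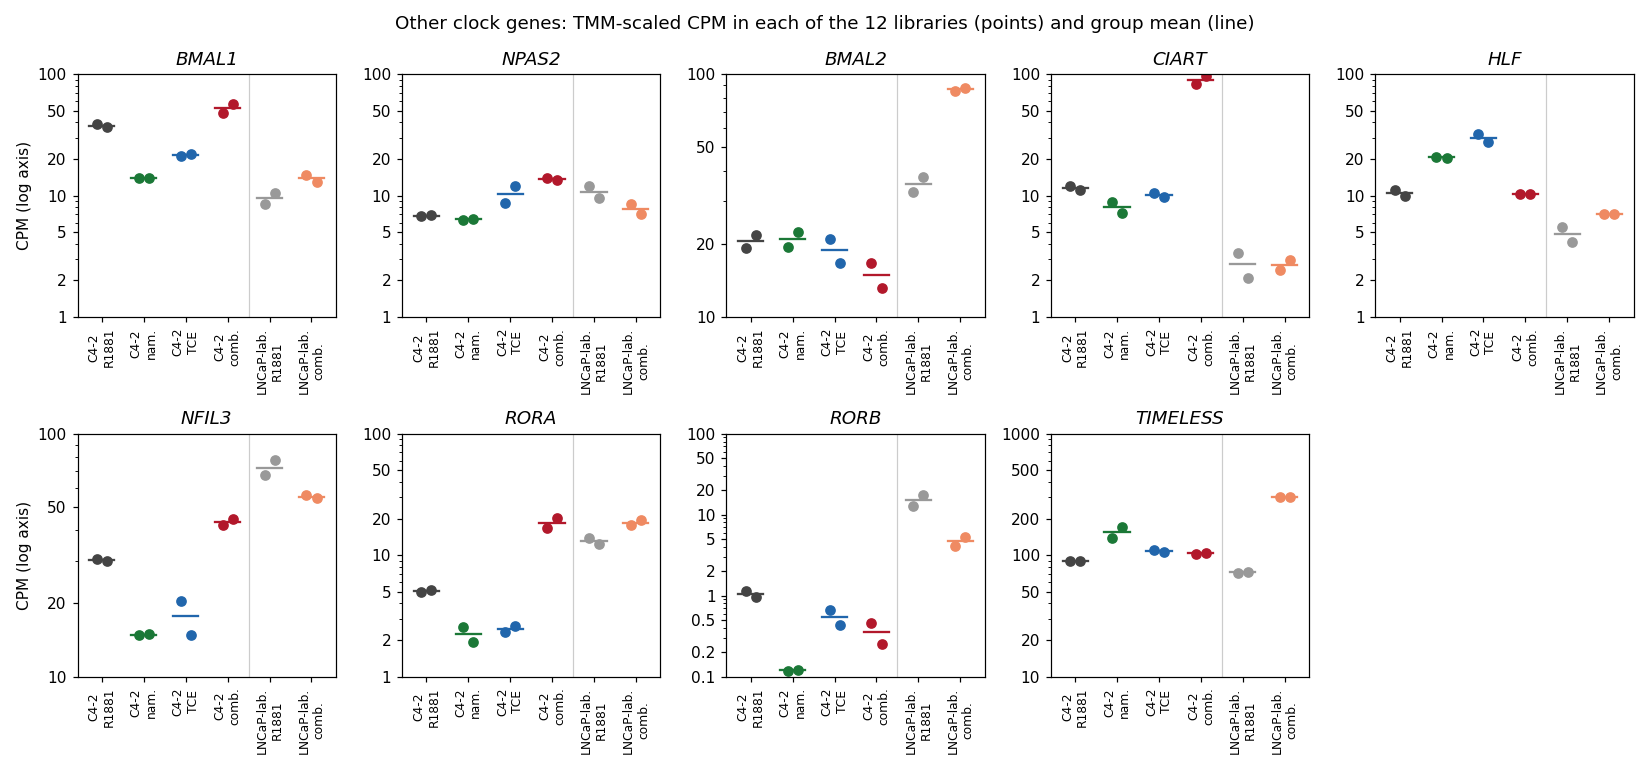
Level of 9 other clock genes in each of the 12 libraries, as CPM on a log axis, by group (labels as for the 10 clock genes); points are libraries and lines group means. BMAL1, NFIL3 and RORA are below R1881 with each inhibitor and above it with the combination in C4-2, and TIMELESS and BMAL2 are highest in the LNCaP-labelled combination.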

How the data were processed

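RNA-seq counts of 12 libraries were used. The authors captured polyadenylated RNA, trimmed reads with Trim Galore, aligned them to GRCh38 with STAR and counted fragments per gene with featureCounts 1.5.0-p1 (Ensembl release 83). The deposited files hold raw counts, per their headers made without a strand option, so strands were not separated. How fragments that touched exons of more than 1 gene were counted was not checked. Groups came from the library titles, since a treatment field describes siRNA work that matches none of them. The members and lists were chosen with earlier results of these data known.

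Counts were fitted with edgeR 4.0.16 (R 4.3.3, limma 3.58.1) by the quasi-likelihood F test after filterByExpr and TMM scaling, and p-values were adjusted by Benjamini-Hochberg across every gene in the fit. The C4-2 contrasts used 8 libraries, the LNCaP-labelled contrast 4, and comparisons between the lines the 8 with R1881 or the combination. A gene passed at an adjusted p-value under 0.05, and 2-fold calls also needed an absolute log2 fold change of 1, which alone was used for counts with the combination. SE was taken as the size of the log2 fold change divided by the root of F. CPM used TMM factors over the 12 libraries. Named beyond the 10 genes were BMAL1, NPAS2 and any of 16 other clock genes with a 2-fold call against R1881, and items withheld are not reported here. Fits were tested on simulated data. Alternatives were RLE scaling, no filter, DESeq2 1.42.0, a replicate block, a GC correction (loess, span 0.5), both together, the 4 libraries compared, and leaving out each library.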

Additional observations from a re-analysis of the deposited data

Results flagged for a closer look

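With the combination, 7 of the 10 clock genes lay on opposite sides of R1881 in the 2 lines, both treated libraries lying on one side of both R1881 libraries in C4-2 and on the other side in the LNCaP-labelled libraries. Of the 17413 genes with a mean of at least 10 counts, 28.2% did so. The difference was not tested for these genes, because their choice used both contrasts. As C4-2 minus LNCaP-labelled on the log2 scale it was 3.75 for PER1, 3.53 for NR1D1, 3.13 for BHLHE40, 2.04 for PER3, 1.70 for DBP, 1.01 for NR1D2 and -0.91 for CLOCK. Some of these changes were small beside their error, with -0.12 (SE 0.24) for LNCaP-labelled PER3 and -0.22 (SE 0.12) for CLOCK and 0.48 (SE 0.20) for DBP in C4-2, and LNCaP-labelled PER1 came to -0.03 with the GC correction. Among the other clock genes named, the same pattern was met by NPAS2 (1.34), NFIL3 (0.79) and BMAL2 (-1.88). The lines differ in cell identity markers, and the median of all genes moved by -0.10 in this contrast.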

How the results depend on the processing

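Over the alternatives, counts of clock genes moved as follows, those chosen on a contrast's own controls left out. With namoline (4 passed) they ranged from 2 to 3 without 1 library. With TCE-5002 (5) they ranged from 2 to 5 without 1 library and came to 3 in the fit on the 4 libraries compared, and the 2-fold count (0) was 1 with RLE scaling, with DESeq2 and in that fit, and 0 to 1 without 1 library. Between the inhibitors (1) the count was 2 with the replicate block, with the GC correction and with both, 0 in the fit on the 4 libraries, and 0 to 2 without 1 library. For the LNCaP-labelled combination the 2-fold count by size (2) was 1 with the GC correction, alone or with the block, and 2 to 3 without 1 library. Other counts stayed within 1.5 times their value. The replicate numbers showed little pairing of the samples, as deviations of the first replicates correlated between groups at r -0.094 to 0.103. The highest values lay within C4-2, at 0.103 for TCE-5002 and namoline and 0.083 for R1881 and TCE-5002. The replicate block gave 5 with namoline, 6 with TCE-5002 and 2 between the inhibitors, where 40.4%, 41.7% and 24.6% of all genes passed.

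Changes that turned sign had not passed. With the GC correction, alone and with the replicate block, these were NR1D1 with namoline (-0.089 and -0.094), DBP (-0.034 and -0.040) and BMAL2 (0.012 and 0.013) with TCE-5002, and PER1 between the inhibitors (-9.84e-05 and -0.00024). Without 1 library they were NR1D1 (-0.24 to 0.40) and BMAL2 (-0.11 to 0.10) with namoline, NR1D1 (-0.014 to 0.63) and BMAL2 (-0.30 to 0.051) with TCE-5002, PER1 (-0.13 to 0.23), PER2 (-0.11 to 0.075), PER3 (-0.18 to 0.12), CLOCK (-0.17 to 0.0086), NR1D2 (-0.016 to 0.29), BMAL2 (-0.29 to 0.028) and RORA (-0.0051 to 0.41) between the inhibitors, and CRY1 (-0.20 to 0.043), NR1D1 (-0.58 to 0.053) and DBP (-0.17 to 0.019) between the lines. The cause was not tested. With 2 libraries per group, log2 changes of the clock genes with a single inhibitor of up to 0.33 in size did not pass against R1881 in the fit of the 8 C4-2 libraries, while smaller ones passed in some alternatives, such as CLOCK with TCE-5002 under the GC correction (-0.21).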
